A study of Mus musculus with 30 samples.

Results

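Heat shock proteins and J-domain proteins are the chaperones that fold, refold and hand over other proteins. The group described here holds every gene in the deposited table whose symbol begins with an Hspa, Hspb, Hspd, Hspe, Hsph, Hsp90 or related Hsp root or with Dnaja, Dnajb or Dnajc, plus the heat shock factors Hsf1 and Hsf2 and the co-chaperones Bag3 and Stip1. This gave 68 of 13788 genes. The symbols alone chose them, with no measured value. By family, 13 are HSP70 and HSP110 chaperones, 3 are HSP90 chaperones, 2 form the mitochondrial chaperonin, 5 carry an Hspb symbol, and 4, 11 and 25 are J-domain proteins of classes A, B and C. The other 5 are Hsf1, Hsf2, Bag3, Stip1 and Hspbp1.

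RNA was sequenced from cultures of primary microglia, the resident macrophages of the brain, prepared from brains of mice labelled PD-1 KO and of mice labelled WT. PD-1, encoded by Pdcd1, is an inhibitory receptor. Each genotype was sampled at 0 h, at 2 h and 8 h without amyloid-beta, and at 2 h and 8 h in conditioned medium that contained amyloid-beta, with 3 libraries in each of the 10 groups and 30 in all. Cells were shaken off the primary cultures, so cells other than microglia can be carried over. The age and sex of the mice, the medium of the cultures without amyloid-beta, and whether the 3 libraries of a group came from separate mice or cultures are not given in the sources used here. P-values therefore measure the spread between these libraries, which may be technical.

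The values are read counts per gene divided by a size factor per library, called normalised values below, with the lowest values set to 1. Recovered reads per library ran from 4227019 to 48509985, with a median of 9603082. Pdcd1 itself was between 6.02 and 25.3 in 15 of 15 PD-1 KO-labelled libraries and at the floor of 1 in 15 of 15 WT-labelled libraries, which goes against the labels if the deletion removes the transcript, so genotypes are called here by their labels. The microglial markers Csf1r, Aif1 and Itgam were present in all 30 libraries. The summed values of 10 astrocyte markers were 11515 to 28826 in PD-1 KO-labelled libraries and 1298 to 3923 in WT-labelled libraries, and those of 10 markers of ependymal cells and motile cilia were 1676 to 7921 in PD-1 KO-labelled libraries and 98 to 538 in WT-labelled libraries. Each of the 10 astrocyte and 10 cilia markers was higher in PD-1 KO-labelled libraries in every condition. In PD-1 KO-labelled libraries the sums were 6541 to 10829 for 11 oligodendrocyte lineage markers, 1087 to 1811 for 8 neuronal markers, 888 to 1791 for 8 fibroblast and vascular markers and 42698 to 74414 for 10 microglial markers. In WT-labelled libraries they were 2494 to 5688, 543 to 951, 242 to 1424 and 55574 to 93153 for the same lists in that order. None of 8 neutrophil, lymphocyte and red cell markers is in the table. Several libraries stood apart within their groups. In astrocyte marker sum, PD-1 KO-labelled replicate 1 at 0 h had 22720, against 11515 and 12038 in the other two. With amyloid-beta, PD-1 KO-labelled replicate 3 at 2 h had 14643, against 28029 and 27670. PD-1 KO-labelled replicate 2 at 8 h with amyloid-beta had 28826, against 15834 and 17632. WT-labelled libraries without amyloid-beta also differed within groups in astrocyte markers. Gfap at 8 h measured 295.8 in WT-labelled replicate 3, against 614.6 and 853.5. Aqp4 at 2 h measured 179.6 in WT-labelled replicate 2, against 354.3 and 427.6. WT-labelled replicate 1 at 2 h had the highest Hspa1a and Hspa1b of all 30. In bulk RNA, a change in the number of cells of a type and a change in RNA per cell cannot be told apart.

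As background, HSP70 proteins bind short hydrophobic stretches of unfolded proteins and release them in cycles of ATP hydrolysis. J-domain proteins bring the clients and switch that ATPase on, HSP110 proteins and other exchange factors reset it, and Stip1 passes clients on to HSP90. Small heat shock proteins hold unfolding proteins without ATP, and the chaperonin Hspd1 with its lid Hspe1 folds proteins inside mitochondria. The heat shock response is switched on by Hsf1, which binds inverted repeats of the letters GAA or their complement. Chaperones of the endoplasmic reticulum (ER) are switched on by the unfolded protein response through the ER stress element.

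Both kinds of sequence were searched in the RefSeq promoters of mouse build GRCm38.p6, each from 250 bases before to 50 bases after an annotated start, on both strands. Promoters were found for 56 of the 68 genes, 73 in all. The heat shock dimer, GAANNTTC or TTCNNGAA, was in 17 of these 73 promoters (23.3%), belonging to 15 genes, against 15.1% of all 32851 promoters. The trimer, a dimer extended by a further repeat at the same spacing, was in 6 promoters (8.22%) of Dnajb6, Hspd1, Hspe1 and Hsph1, against 0.603% of all promoters. These promoters overlap in pairs: those of Dnajb6, those of Hsph1, and those of Hspd1 and Hspe1 hold the same matches. The same bases were thus counted more than once, in the dimer count too. Overlapping promoters were not merged, among the members or among all promoters. The ER stress element, CCAAT and CCACG with 9 bases of any kind between them, was in 3 promoters (4.11%), those of Dnajc3, Hsp90b1 and Hspa5, against 0.119%. A match describes the letters and does not show that a factor binds there. The stretches below run from base -220 to base 30 around the start, with matches in capitals. The first 3 carry heat shock repeats and belong to Hsph1, which differed in level between the genotype labels, to Dnaja4, which differed too and holds a pair of dimers, and to Hspd1, which was lower. The Hspd1 stretch, chr1:55087903-55088152 on the minus strand, lies within the promoter of Hspe1, which is read from the opposite strand. The other 3, Hspa5, Hsp90b1 and Dnajc3, carry the ER stress element and belong to genes whose levels differed with time in culture or between the genotype labels.
Hsph1, chr5:149636286-149636535, minus strand: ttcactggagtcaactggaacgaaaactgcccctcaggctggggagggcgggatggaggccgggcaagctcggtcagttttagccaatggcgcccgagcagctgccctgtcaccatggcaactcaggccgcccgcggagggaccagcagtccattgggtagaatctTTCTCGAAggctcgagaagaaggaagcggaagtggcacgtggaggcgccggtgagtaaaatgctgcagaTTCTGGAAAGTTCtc
Dnaja4, chr9:54699339-54699588, plus strand: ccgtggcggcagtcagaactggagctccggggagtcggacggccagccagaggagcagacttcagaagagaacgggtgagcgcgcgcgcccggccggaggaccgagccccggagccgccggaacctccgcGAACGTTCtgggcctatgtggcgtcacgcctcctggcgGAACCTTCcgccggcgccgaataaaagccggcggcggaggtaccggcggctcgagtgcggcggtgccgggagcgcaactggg
Hspd1, chr1:55087903-55088152, minus strand: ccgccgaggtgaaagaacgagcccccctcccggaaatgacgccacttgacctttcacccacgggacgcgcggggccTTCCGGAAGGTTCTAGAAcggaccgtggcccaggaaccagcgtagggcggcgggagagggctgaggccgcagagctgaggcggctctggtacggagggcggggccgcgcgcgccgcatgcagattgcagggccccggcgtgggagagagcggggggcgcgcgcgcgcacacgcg
Hspa5, chr2:34771870-34772119, plus strand: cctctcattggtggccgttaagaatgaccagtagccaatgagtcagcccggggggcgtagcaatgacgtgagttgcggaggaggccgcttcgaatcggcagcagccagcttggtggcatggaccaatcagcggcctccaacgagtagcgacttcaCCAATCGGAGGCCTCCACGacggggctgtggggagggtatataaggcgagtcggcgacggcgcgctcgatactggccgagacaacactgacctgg
Hsp90b1, chr10:86705415-86705664, minus strand: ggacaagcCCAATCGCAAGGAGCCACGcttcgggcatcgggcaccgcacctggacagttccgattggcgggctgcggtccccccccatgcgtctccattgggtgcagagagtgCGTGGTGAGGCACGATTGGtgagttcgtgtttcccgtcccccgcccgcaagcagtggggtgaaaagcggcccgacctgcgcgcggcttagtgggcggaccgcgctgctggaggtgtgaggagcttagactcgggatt
Dnajc3, chr14:118937712-118937961, plus strand: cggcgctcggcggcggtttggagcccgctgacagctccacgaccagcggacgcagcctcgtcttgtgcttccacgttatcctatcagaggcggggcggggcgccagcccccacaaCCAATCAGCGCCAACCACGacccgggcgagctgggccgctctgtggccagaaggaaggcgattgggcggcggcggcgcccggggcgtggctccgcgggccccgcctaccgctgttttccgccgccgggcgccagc

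Per kilobase of annotated exon, the most abundant members were constitutive chaperones of the cytosol, the mitochondrion and the ER, together with the inducible Hsp90aa1. Hsp90ab1, the constitutive cytosolic HSP90, had a median of 3961 per kilobase in PD-1 KO-labelled libraries and 3943 in WT-labelled libraries. Hspa8, the constitutive cytosolic HSP70, had 3193 in PD-1 KO-labelled libraries and 3366 in WT-labelled libraries. These were the highest members under both labels. In PD-1 KO-labelled libraries there followed Hspa5, the HSP70 of the ER, with 1562, Hsp90aa1, the inducible cytosolic HSP90, with 1550, Hspa9, the mitochondrial HSP70, with 1531, and Hsp90b1, the HSP90 of the ER, with 1280. In WT-labelled libraries there followed Hspa9 with 1801, Hspa5 with 1441, Hsp90b1 with 1190, Hspd1 with 1078 and Hsp90aa1 with 993.6. The stress-inducible HSP70 genes Hspa1a and Hspa1b were far lower, at 21.6 and 17.5 per kilobase in PD-1 KO-labelled libraries and 11.3 and 5.31 in WT-labelled libraries. Per gene rather than per kilobase, Hsp90ab1 was also the steadiest member, from 11140 to 12990 with a median of 11880 in PD-1 KO-labelled libraries and from 11050 to 13620 with a median of 11820 in WT-labelled libraries. Its coefficient of variation over the 30 libraries was 5.85%. The largest among tested members was 109.4%, for Dnajc6. A single member, the class B gene Dnajb3, was too low to test: it was at most 26.1 in PD-1 KO-labelled libraries and 5.70 in WT-labelled libraries, and lay at the floor in 4 libraries.

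The first question the design poses is whether the genotype labels differ. Averaged over the 5 conditions, 25 of the 67 tested members were higher and 17 lower in PD-1 KO-labelled libraries than in WT-labelled libraries (62.7%, limma, adjusted p under 0.05), against 59.5% of all 13722 genes tested (30.3% higher and 29.1% lower). The share is close to that of all genes, and the median member differed by 0.01 on the log2 scale, against -0.02 over all genes. With library sizes normalised anew from the recovered reads, which moves the median of all genes by 0.115, the split was 36 higher and 1 lower. With quantile normalisation, which puts the median of all genes at -0.109, it was 26 higher and 20 lower. The direction of small differences therefore depends on the scaling. By size, 14 differed by 0.5 or more on the log2 scale, and all 14 were higher in PD-1 KO-labelled libraries, while the lowest member, Dnajc19, an inner-membrane J-domain protein of the mitochondrial import motor, differed by -0.32. The number of all genes that differed by that much, and their direction, is not given here, so this is not read as particular to the members. In single conditions, 10 members were higher and 4 lower at 0 h (20.9%, against 20.7% of all genes, 13.8% higher and 6.88% lower). At 2 h 17 were higher and 7 lower (35.8%, against 32.2%, 18.8% higher and 13.4% lower), and at 8 h 18 and 2 (29.9%, against 27%, 18% higher and 9.01% lower). With amyloid-beta, 23 were higher and 9 lower at 2 h (47.8%, against 38.9%, 22.2% higher and 16.7% lower), and 18 and 3 at 8 h (31.3%, against 33.7%, 22% higher and 11.7% lower). Under the new library sizes these counts were 7 higher and 2 lower at 0 h, 25 and 2 at 2 h, 22 and 0 at 8 h, and with amyloid-beta 27 and 0 at 2 h and 26 and 0 at 8 h. The shares of all genes under the other scalings are not given here. Splits of the members under them are therefore not read as a result about the members.

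Of the 5 genes with an Hspb symbol, the 3 small heat shock proteins proper were higher in all 5 conditions. Hspb8, which works with Bag3 in the disposal of misfolded proteins and lies at chr5:116408491-116422864 of mm10 in GENCODE M21, the source of all gene positions here, ranged from 560.4 to 1115 with a median of 705.3 in PD-1 KO-labelled libraries and from 89.7 to 220.3 with a median of 165.3 in WT-labelled libraries. The lowest PD-1 KO-labelled library was above the highest WT-labelled library. The average difference was 2.22 ± 0.11 on the log2 scale (SE, n = 15 and 15, limma adjusted p = 2.49e-16), and in single conditions it ran from 1.84 ± 0.24 at 0 h (adjusted p = 1.7e-06) to 2.56 ± 0.24 at 2 h (adjusted p = 4.26e-09). Hspb6, a small heat shock protein best known from muscle, ranged from 73.6 to 198.8 in PD-1 KO-labelled libraries and from 28.4 to 72.7 in WT-labelled libraries, again without overlap, and differed by 1.32 ± 0.13 (adjusted p = 7e-10). Its exons overlap those of Lin37, Proser3 and Gm38670, and reads in the overlap may be counted for either gene. Hspb1, the classical inducible small heat shock protein, was low, with a median of 47.4 in PD-1 KO-labelled libraries and 18.2 in WT-labelled libraries, and differed by 1.30 ± 0.14 (adjusted p = 7.75e-09). The ranges of Hspb1 overlapped, from 27.5 to 78.1 in PD-1 KO-labelled libraries and from 10.03 to 28.7 in WT-labelled libraries. At 0 h its difference of 1.10 ± 0.32 (adjusted p = 0.0146) dropped to 0.85 (adjusted p = 0.112) without PD-1 KO-labelled replicate 1 and to 0.91 (adjusted p = 0.0848) without WT-labelled replicate 1. With quantile normalisation Hspb1 passed only at 8 h without amyloid-beta, and its differences in the other 4 conditions were 0.44 to 0.72 (adjusted p of 0.0937 to 0.254). Hspb11, a ciliary transport protein despite its symbol, and Hspbap1, an Hspb1-binding protein, did not pass on average, with -0.06 ± 0.11 and -0.12 ± 0.10, but both were lower with quantile normalisation, with -0.45 (adjusted p = 0.00106) and -0.65 (adjusted p = 1.96e-06).

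In the HSP70 and HSP110 family, 8 of 13 members were higher on average and 3 lower, where 30.3% of all genes were higher and 29.1% lower. Hspa2, an HSP70 best known from testis and also expressed in glia, lies on chromosome 12 (76404176 to 76406938). At 0 h it measured 893.4, 315.7 and 303.9 in PD-1 KO-labelled libraries, against 137.6, 143.5 and 138.8 in WT-labelled libraries. At 8 h with amyloid-beta it measured 575.2, 1032 and 535.2 in PD-1 KO-labelled libraries, against 116.7, 76.5 and 92.1 in WT-labelled libraries. Over all 30 libraries the genotype labels did not overlap. The difference was 1.65 ± 0.30 at 0 h (adjusted p = 0.000186), and with amyloid-beta at 8 h it was 2.85 ± 0.30 (adjusted p = 1.77e-08). It was 2.37 ± 0.14 on average (adjusted p = 9.22e-15). Hspa12a, a distant HSP70 relative found in brain, ranged from 24.2 to 112.4 in PD-1 KO-labelled libraries and from 5.27 to 15.2 in WT-labelled libraries, without overlap, and differed by 2.37 ± 0.18 (adjusted p = 2.61e-12). Its exons overlap those of Eno4.

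The exchange factors Hsph1 and Hspa4l and the inducible Hsp90aa1 were higher at 2 h and 8 h but did not pass at 0 h. Hsph1, the heat-inducible HSP110 at chr5:149614287-149636376, measured 1055, 647.1 and 665 in PD-1 KO-labelled libraries at 0 h, against 589.6, 652.1 and 651.1 in WT-labelled libraries. At 8 h it measured 811.9, 854.6 and 956.1 in PD-1 KO-labelled libraries, against 468.3, 439.4 and 416.2 in WT-labelled libraries. At 0 h the values overlapped, and at 8 h they did not. The differences were 0.29 ± 0.16 at 0 h (limma adjusted p = 0.23), 0.91 at 2 h (7.08e-05), 1.09 at 2 h with amyloid-beta (3.81e-06), 0.98 at 8 h (2.92e-05) and 1.01 at 8 h with amyloid-beta (1.16e-05). Hspa4l, a further HSP110 member, differed by 0.43 ± 0.18 at 0 h (adjusted p = 0.102) and by 1.28 ± 0.18 at 2 h (adjusted p = 3.89e-06). Hsp90aa1 measured 6683, 4445 and 5081 at 0 h in PD-1 KO-labelled libraries, against 4078, 4548 and 4267 in WT-labelled libraries, a difference of 0.31 ± 0.16 (adjusted p = 0.182). At 2 h with amyloid-beta it measured 6906, 8151 and 5932 in PD-1 KO-labelled libraries, against 2662, 3612 and 4344 in WT-labelled libraries, a difference of 1.0 ± 0.16 (adjusted p = 1.17e-05). For all 3 genes the highest value at 0 h came from PD-1 KO-labelled replicate 1, the library with the high astrocyte marker sum. The constitutive partners did not pass on average: Hsp90ab1 differed by -0.03 ± 0.03 (adjusted p = 0.465), Hsp90b1 by 0.04 ± 0.05 (0.527) and Hspa8 by -0.05 ± 0.05 (0.424). They were called higher under other scalings: with quantile normalisation by 0.26 (adjusted p = 2.48e-07), 0.21 (0.000629) and 0.26 (1.19e-05) in that order, and with the new library sizes Hsp90ab1 by 0.11 (0.000277) and Hsp90b1 by 0.17 (0.00645).

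**Figure D1:**
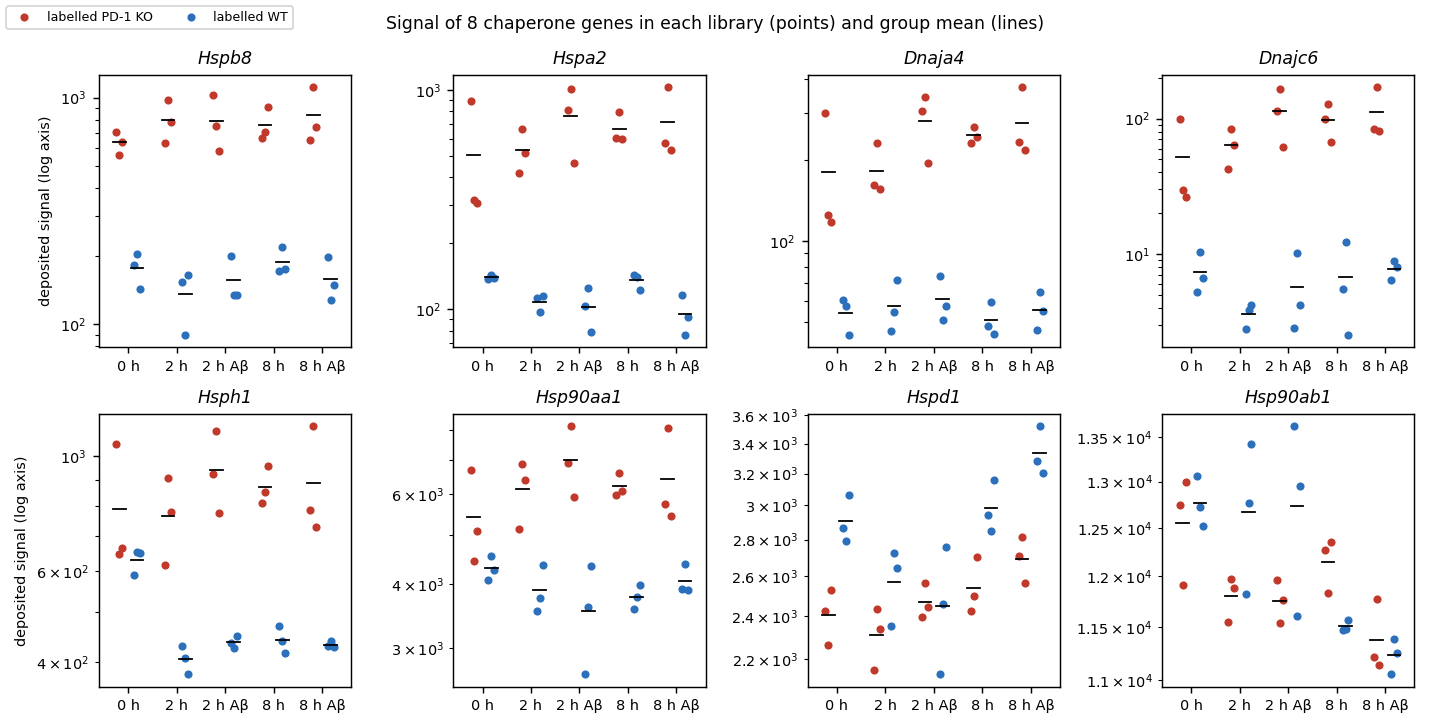
Normalised values (y axis, log scale) of 8 members in the 30 libraries, by condition (x axis), with PD-1 KO-labelled libraries in red to the left of WT-labelled libraries in blue; points are libraries and lines are group means. Hspb8, Hspa2, Dnaja4 and Dnajc6 do not overlap between the genotype labels, Hsph1 and Hsp90aa1 separate after 0 h, Hspd1 differs little and Hsp90ab1 stays between 11050 and 13620 throughout.

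Among J-domain proteins, 1 of 4 class A, 5 of 10 class B and 6 of 25 class C genes were higher on average, and 2, 2 and 7 were lower, against 30.3% higher and 29.1% lower among all genes. Dnajc6, or auxilin, which recruits Hspa8 to strip clathrin from vesicles in neurons, lies at chr4:101496648-101642799. It measured 99.1, 29.9 and 26.3 in PD-1 KO-labelled libraries at 0 h, against 5.24, 10.3 and 6.61 in WT-labelled libraries. Over all conditions the range was 26.3 to 171.2 in PD-1 KO-labelled libraries and 2.51 to 12.3 in WT-labelled libraries, without overlap, and the average difference of 3.56 ± 0.22 (adjusted p = 4.86e-14) was the largest of all members. The WT-labelled values are low enough for the added 1 to shrink this difference. Dnaja4, a class A protein that assists Hspa8, ranged from 117.7 to 374.2 in PD-1 KO-labelled libraries and from 44.6 to 74.1 in WT-labelled libraries and differed by 1.99 ± 0.12 (adjusted p = 5.27e-14). Its exons overlap those of Wdr61. Dnajb13, a J-domain protein of the axoneme of cilia and sperm tails, ranged from 44.1 to 257 in PD-1 KO-labelled libraries and from 10.03 to 49.1 in WT-labelled libraries and differed by 2.67 ± 0.21 (adjusted p = 6.49e-12). Dnajb13 overlaps exons of Ucp2. Dnajb2, a neuronal protein that hands ubiquitinated clients to the proteasome, had a median of 375.2 in PD-1 KO-labelled libraries and 211 in WT-labelled libraries and differed by 0.80 ± 0.07 (adjusted p = 3.54e-11). At 0 h its difference of 0.44 ± 0.15 (adjusted p = 0.035) became 0.27 (adjusted p = 0.289) without PD-1 KO-labelled replicate 1, 0.38 (0.135) without WT-labelled replicate 1 and 0.36 (0.156) without WT-labelled replicate 3. The ER proteins Dnajc3, an inhibitor of the eIF2alpha kinases, and Dnajc10, a disulfide reductase, were higher in all conditions but 0 h, by 0.47 ± 0.05 (adjusted p = 4.56e-09) and 0.36 ± 0.04 (adjusted p = 9.25e-09) on average. Dnajb1, the partner of inducible HSP70 and a classical heat shock target, differed by -0.01 ± 0.06 (adjusted p = 0.894).

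The other members past the threshold on average differed by less than 0.5. Among those higher were the ER proteins Dnajb9, which helps to dispose of misfolded proteins, by 0.23 ± 0.05, Hspa13, an ER and microsomal HSP70, by 0.13 ± 0.05, and Hspa5 by 0.11 ± 0.04. Dnajb5, a relative of Dnajb1, was higher by 0.36 ± 0.12, Dnajc28 by 0.34 ± 0.08, Dnajc27 by 0.25 ± 0.07, Dnajc18 by 0.23 ± 0.04 and Dnajb4 by 0.19 ± 0.05. Among those lower were Dnajb11, a co-chaperone of Hspa5 in the ER, with -0.15 ± 0.04, the splicing-associated Dnajc8 with -0.16 ± 0.04, Dnaja2, a class A partner of Hspa8, with -0.11 ± 0.03, and Hspa4, an HSP110 exchange factor, with -0.13 ± 0.03. Under the deposited scaling the ER members thus lay in both directions. Dnajb11 did not pass with quantile normalisation (-0.08, limma adjusted p = 0.052) or with the new library sizes (-0.02, adjusted p = 0.62). Hspa5 was called higher in every condition but 0 h under both of these scalings. Its differences there were 0.29 to 0.46 with quantile normalisation (adjusted p up to 0.00159). With the new library sizes they were 0.26 to 0.35 (adjusted p up to 0.00311).

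Altogether 9 members were higher in all 5 conditions (13.4%, against 9.15% of all genes): Hspb1, Hspb6, Hspb8, Hspa2, Hspa12a, Dnaja4, Dnajb2, Dnajb13 and Dnajc6. None was lower in all 5 (against 2.29%). Every PD-1 KO-labelled library was above every WT-labelled library for 6 members (8.96%, against 7.64% of all genes), and below for none (against 1.36%). Within each PD-1 KO-labelled group except that at 2 h with amyloid-beta, Hspa2, Dnaja4 and Dnajc6 were each highest in the library with the highest astrocyte marker sum. At 0 h that was replicate 1, with sums of 22720 for astrocytes and 5842 for cilia, and at 8 h with amyloid-beta replicate 2, with 28826 and 7921. The part of astrocytes and ciliated cells in these differences was not tested.

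Lower levels in PD-1 KO-labelled libraries were small. The 17 members lower on average differed by -0.32 to -0.10 and included Dnajc13, a J-domain protein of endosomes, with -0.25 ± 0.06, the mitochondrial Dnajc11 with -0.20 ± 0.04, and Dnajb6, which suppresses aggregation of polyglutamine proteins, with -0.18 ± 0.04. Only Hspa9 and Hspd1 were lower in 3 or more conditions (2.99%, against 8.23% of all genes). Hspa9, which pulls proteins into the mitochondrial matrix, measured 5833, 6572 and 5907 at 0 h in PD-1 KO-labelled libraries, against 7629, 7763 and 8106 in WT-labelled libraries. These values did not overlap, and the difference was -0.36 ± 0.07 (adjusted p = 0.000623). At 2 h it was 0.00 (adjusted p = 0.989) and at 8 h -0.20 (adjusted p = 0.0469), a call lost without any library of that time except WT-labelled replicate 1 (adjusted p of 0.0687 to 0.217). Hspd1 measured 2425, 2263 and 2527 at 0 h in PD-1 KO-labelled libraries, against 2864, 2793 and 3062 in WT-labelled libraries, a difference of -0.27 ± 0.08 (adjusted p = 0.0188; 0.0941 without WT-labelled replicate 3 and 0.093 without PD-1 KO-labelled replicate 2), and differed by -0.31 at 8 h with amyloid-beta (adjusted p = 0.00482). Its lid Hspe1, which shares exon sequence with Hspd1 on the opposite strand, differed by -0.25 ± 0.07 on average (adjusted p = 0.00168). With library sizes normalised anew, the average differences of Hspd1 and Hspa9 were -0.05 and -0.04, and neither passed. Hspe1 did not pass there either, with -0.115 (adjusted p = 0.133). The same held for Dnajc13 with -0.115 (0.137), Dnajc11 with -0.071 (0.0993) and Dnajb6 with -0.046 (0.216). With quantile normalisation Hspa9 was 0.04.

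The inducible pair Hspa1a and Hspa1b (chr17:34969190-34972156 and chr17:34956436-34959238) are near-identical copies whose reads the counting may have split, so each value is uncertain. Hspa1b measured 80.96, 38.4 and 49.1 at 0 h in PD-1 KO-labelled libraries, against 14.4, 16.4 and 14.9 in WT-labelled libraries. At 8 h it measured 53.8, 96.3 and 56.1 in PD-1 KO-labelled libraries, against 13.1, 23.8 and 10.03 in WT-labelled libraries. Hspa1a measured 76.4, 66.8 and 77.9 at 8 h in PD-1 KO-labelled libraries, against 33.8, 22.3 and 45.1 in WT-labelled libraries. None of these groups overlapped, but Hspa1b did not pass at 0 h. At 8 h both genes passed. Hspa1a lost that call without any library of that time except WT-labelled replicate 3 (limma adjusted p of 0.0714 to 0.183), and with quantile normalisation (0.227). Hspa1b lost it without WT-labelled replicate 3 (0.0732) or PD-1 KO-labelled replicate 2 (0.0701), with quantile normalisation (0.0562) and with the new library sizes (0.0544). At 2 h WT-labelled replicate 1 stood apart with 226.3 for Hspa1a, against 33.6 and 35.8 in the other two libraries of its group, and with 149.3 for Hspa1b, against 12.6 and 11.6. Averaged over conditions, Hspa1a differed by 0.76 ± 0.19 (limma adjusted p = 0.0011) and Hspa1b by 1.45 ± 0.29 (adjusted p = 8.21e-05). Without that library the averages were 0.94 and 1.69, and the 2 h difference of Hspa1a was 0.53 (adjusted p = 0.17) in place of -0.36 (adjusted p = 0.561), and that of Hspa1b 1.48 (adjusted p = 0.0296) in place of 0.31 (adjusted p = 0.756). Of 5 immediate early genes, Fos, Jun and Egr1 were highest of their group in that library, at 543.4, 1617 and 609.3, against at most 431.8, 1392 and 566.5, while Ier2 was between the other two and Atf3 was the lowest, at 6156, against 7430 and 6361. Its part in the Hspa1 values beyond these figures was not tested. With quantile normalisation the average of Hspa1a was 0.20 (adjusted p = 0.328).

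**Figure D2:**
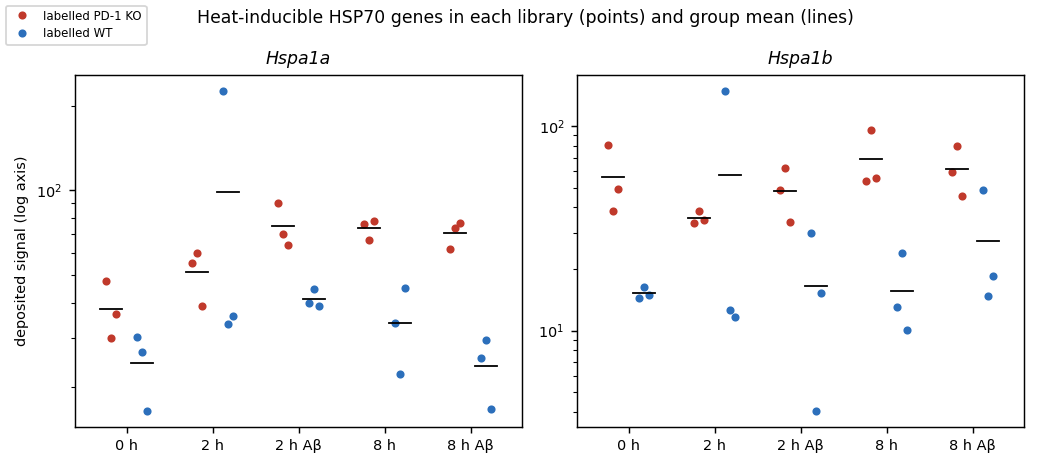
Normalised values (y axis, log scale) of Hspa1a and Hspa1b in each library by condition (x axis), PD-1 KO-labelled in red to the left of WT-labelled in blue; points are libraries and lines are group means. The PD-1 KO-labelled means lie above the WT-labelled means except at 2 h, where 1 WT-labelled library reaches 226.3 and 149.3.

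The regulators themselves differed little. Hsf1, the heat shock factor, ranged from 206.8 to 279.9 with a median of 237.6 in PD-1 KO-labelled libraries and from 185.5 to 287.7 with a median of 249.1 in WT-labelled libraries, and its difference was -0.03 ± 0.06 (adjusted p = 0.729). Hsf2 differed by 0.05 ± 0.06 (adjusted p = 0.492) and Bag3, an HSP70 exchange factor and partner of Hspb8, by 0.09 ± 0.04 (adjusted p = 0.0731). Stip1, the HSP70 to HSP90 adaptor, was higher by 0.10 ± 0.04 (adjusted p = 0.0273), and missed the threshold without any 1 of 5 libraries (adjusted p of 0.0507 to 0.0589): replicate 1 at 0 h, replicate 3 at 8 h and replicate 2 at 2 h and 8 h with amyloid-beta, all PD-1 KO-labelled, and WT-labelled replicate 2 at 2 h with amyloid-beta. In all, 16 members passed in none of the 20 comparisons, Hsf1, Dnajb1 and Hsp90ab1 among them. Of these 16, 10 passed in at least 1 comparison with quantile normalisation, Hsp90ab1 included, and 4 with the new library sizes.

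The time course without amyloid-beta asked what changes between 0 h, 2 h and 8 h. In PD-1 KO-labelled libraries, no member passed at 2 h against 0 h (0%, against 0.634% of all genes, 0.357% higher and 0.277% lower; 6 members had an unadjusted p under 0.05, and none passed with limma's voom). At 8 h against 0 h, 1 member rose and 1 fell (2.99%, against 3.29%, 1.5% higher and 1.79% lower). In WT-labelled libraries, 3 members fell at 2 h against 0 h (4.48%, against 4.75%, 2.59% higher and 2.16% lower). In the same libraries 4 fell at 8 h against 0 h (5.97%, against 6.05%, 3% higher and 3.05% lower), and 3 rose and 2 fell at 8 h against 2 h (7.46%, against 5.98%, 2.86% higher and 3.13% lower). At 8 h against 2 h 1 member rose in PD-1 KO-labelled libraries (1.49%, against 1.97%, 1.03% higher and 0.94% lower). The shares are close to those of all genes. The numbers in the sample titles run in separate series for 8 h and for 0 h and 2 h, and a difference between such series cannot be told apart from time.

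In WT-labelled libraries Hsp90b1 and Hspa5, both of the ER, and the constitutive Hspa8 fell by 8 h. Hsp90b1 measured 6432, 6810 and 6797 at 0 h, 4799, 5486 and 5983 at 2 h, and 3970, 4095 and 4039 at 8 h. It fell by 0.73 ± 0.11 on the log2 scale at 8 h (limma adjusted p = 0.000132). Hspa5, or BiP, measured 5079, 5000 and 5791 at 8 h, against 7604, 7300 and 7711 at 0 h, and fell by 0.51 ± 0.09 (adjusted p = 0.00036). Hspa8 measured 13030, 12240 and 11180 at 8 h, against 17310, 17950 and 17850 at 0 h, and fell by 0.55 ± 0.11 (adjusted p = 0.00164). None of these 3 genes had overlapping values, and each passed with any single library left out. Dnaja1, the class A partner of Hspa8, fell by 0.38 ± 0.10 (adjusted p = 0.0218), and did not pass when WT-labelled replicate 3 at 8 h was left out (adjusted p = 0.164) or when any 1 of the 0 h libraries was left out (adjusted p up to 0.0664). At 8 h against 2 h Hsp90b1 and Hspa8 fell too, by 0.42 (adjusted p = 0.0269) and 0.39 (adjusted p = 0.03), and both lost the call without replicate 2 or 3 of either time (adjusted p up to 0.125 and 0.177), Hsp90b1 also without replicate 1 at 8 h (0.0601).

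Hspa9 had a dip at 2 h in WT-labelled libraries. It measured 7629, 7763 and 8106 at 0 h, 5886, 6469 and 6460 at 2 h, and 8273, 8559 and 9261 at 8 h. It fell by 0.32 ± 0.07 at 2 h (adjusted p = 0.00968; 0.063 without replicate 3 at 0 h) and rose by 0.47 ± 0.07 from there to 8 h (adjusted p = 0.000346). Hsph1 also fell at 2 h, to 428.4, 406 and 378.1, against 589.6, 652.1 and 651.1 at 0 h, by 0.64 ± 0.16 (adjusted p = 0.0179; up to 0.0918 without replicate 2 or 3 of either time). Dnajc3 fell at 2 h by 0.38 ± 0.11 (adjusted p = 0.0467), and did not pass when any library of either time but replicate 1 at 0 h was left out (adjusted p of 0.0643 to 0.198). Dnaja3, a mitochondrial partner of Hspa9, rose at 8 h against 2 h by 0.35 (adjusted p = 0.0298), and Dnajb12, a J-domain protein of the ER membrane, by 0.31 (adjusted p = 0.047). Dnaja3 lost its call without replicate 1 or 3 at 2 h or replicate 3 at 8 h (adjusted p up to 0.194), and Dnajb12 without any library of these groups but replicate 1 at 2 h (up to 0.231). The rise of Hspa1a at 2 h, 1.42 ± 0.43 (adjusted p = 0.051), rested on replicate 1, and was 0.53 (adjusted p = 0.301) without it. Over the same 8 h of the WT-labelled course, none of the astrocyte and none of the cilia markers passed, 4 of 11 oligodendrocyte markers fell and 3 of 10 microglial markers rose.

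In PD-1 KO-labelled libraries, Hspa9 rose at 8 h to 7507, 7483 and 7731, against 5833, 6572 and 5907 at 0 h, by 0.31 ± 0.07 (adjusted p = 0.0125). Its call was lost without replicate 3 of either time (adjusted p of 0.0567 and 0.0577). Bag3 fell by 0.365 ± 0.10 (adjusted p = 0.0253; up to 0.198 without replicate 2 or 3 at 0 h or replicate 1 or 2 at 8 h). Dnajc18, a J-domain protein of the ER membrane, rose at 8 h against 2 h by 0.295 ± 0.08 (adjusted p = 0.0489) and lost its call whenever any library of either time was left out. Hsp90b1 measured 4843, 4731 and 4541 at 8 h, against 5442, 5402 and 6141 at 0 h, a difference of -0.27 ± 0.11 (adjusted p = 0.25). Hspa5 differed by -0.18 (adjusted p = 0.338), Hspa8 by -0.27 (adjusted p = 0.208) and Dnaja1 by 0.04 (adjusted p = 0.901), and none of these passed. Hspa2, Dnaja4, Dnajc6 and Hspa4l passed at 8 h against 0 h only without PD-1 KO-labelled replicate 1 at 0 h. They then rose by 1.09 (limma adjusted p = 0.016), 1.02 (0.019), 1.73 (0.0431) and 0.63 (0.0396) in that order.

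The difference between the genotype labels in these time effects was tested directly. No member passed at 2 h against 0 h (0%, against 0.736% of all genes; 8 members had an unadjusted p under 0.05, and 1 passed with voom) or at 8 h against 0 h (0%, against 0.27%; 9 unadjusted, none with voom). For the change to 8 h, the PD-1 KO-labelled effect minus the WT-labelled effect was 0.46 ± 0.16 for Hsp90b1 (adjusted p = 0.288), 0.34 ± 0.12 for Hspa5 (0.305), 0.70 ± 0.23 for Hsph1 (0.248) and 0.42 for Dnaja1 (0.269). For the change to 2 h it was 0.36 ± 0.11 for Hspa9 (adjusted p = 0.0972), which passed with quantile normalisation (0.0118) and voom (0.0138). Hspa5 passed there with quantile normalisation, with 0.41 (adjusted p = 0.0342). Without PD-1 KO-labelled replicate 1 at 0 h, Hsph1 passed at 2 h with 0.85 (adjusted p = 0.0252) and at 8 h with 0.93 (0.0336), and Hspa4l at 2 h with 1.11 (0.0137). With all 30 libraries and the deposited scaling no such difference passed, and whether one passes depends on the scaling and on that library.

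Amyloid-beta conditioned medium against none at the same time gave no call for any member. In PD-1 KO-labelled libraries none passed at 2 h (0 of all 13722 genes did, 0%) or at 8 h (0.0583% of all genes), and in WT-labelled libraries none passed at 2 h (0%) or at 8 h (2.18%). Unadjusted p-values under 0.05 numbered 5, 3, 5 and 4 of 67 in that order, and voom passed none in any of the 4. In PD-1 KO-labelled libraries the differences ran from -0.37 for Dnajc21 to 0.85 for Hspa12a at 2 h, and from -0.34 for Dnajc19 to 0.73 for Hspa1l at 8 h. In WT-labelled libraries they ran from -1.11 for Hspa1b to 0.41 for Dnajc6 at 2 h, and from -0.53 for Hspa2 to 0.66 for Hspa1b at 8 h. The -1.11 was 0.06 without WT-labelled replicate 1 at 2 h. Sizes under 0.5 on the log2 scale made up 63, 66, 65 and 65 of the 67 members. The lowest adjusted p of all was 0.123, for Dnajc10 in WT-labelled libraries at 8 h, with 0.27 ± 0.09. Hspa8 in WT-labelled libraries at 2 h measured 18810, 14480 and 16830 with amyloid-beta, against 13380, 17480 and 16980 without, and the values overlapped. Its difference was 0.07 ± 0.11. Some cell type markers did pass in WT-labelled libraries at 8 h with amyloid-beta against none. Examples are Gfap with -1.35 (limma adjusted p = 0.0336), Foxj1 with -1.91 (0.0029) and Pdgfra with -2.66 (0.000687). Nefl was higher there, with 1.87 (0.0228). No marker passed in the other comparisons of amyloid-beta against none. The part of these cell types in the values of the members was not tested. The genotype difference of the amyloid-beta effect passed for no member either, at 2 h (0.051% of all genes; 2 members unadjusted) or at 8 h (0% of all genes; 2 unadjusted), and voom again passed none.

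**Figure D3:**
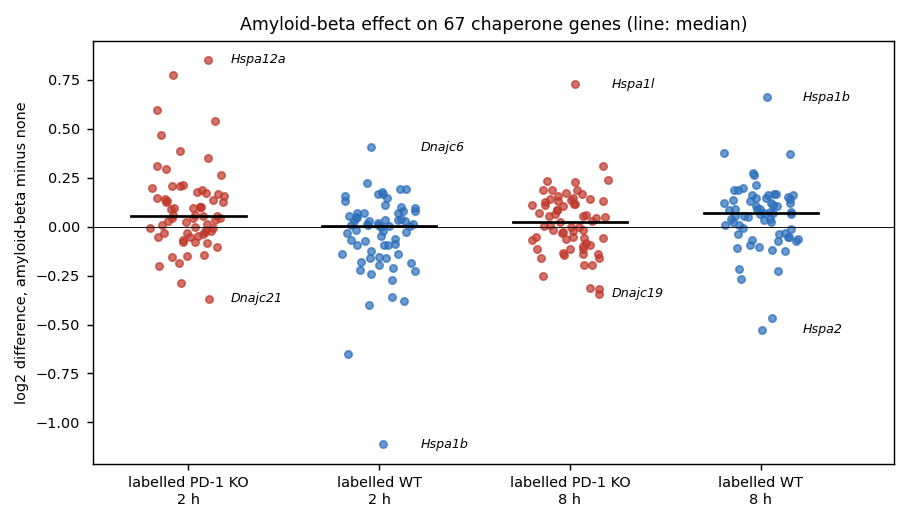
Log2 difference of amyloid-beta against none (y axis) for the 67 tested members in each of 4 comparisons (x axis), PD-1 KO-labelled before WT-labelled at each time; points are members and lines are medians. The medians lie at 0.055 and 0.005 at 2 h and at 0.025 and 0.069 at 8 h, and the points farthest from 0 are low-level genes such as Hspa1b and Hspa12a.

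The neighbours of these genes in the protein folding pathway were counted from 4 lists of genes outside the symbol rule. Of 22 co-chaperones and heat shock factor targets, 6 were higher and 6 lower on average in PD-1 KO-labelled libraries, where 30.3% of all genes were higher and 29.1% lower. The collagen chaperone Serpinh1 differed by 1.84 ± 0.11 (adjusted p = 1.73e-14) and the small heat shock protein Cryab by 0.90 ± 0.08 (adjusted p = 4.47e-11). Of the 8 subunits of TRiC, the cytosolic chaperonin, none was higher and 5 were lower. Of 8 mitochondrial proteases and chaperones, none was higher and 4 were lower, Afg3l2 by 0.24, Lonp1 by 0.19, Grpel1 by 0.18 and Yme1l1 by 0.12 on the log2 scale. Of 18 genes of the ER unfolded protein response, 2 were higher and 5 lower. The lists were not refitted under the other scalings, which turned the direction of some members with differences of this size.

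The ER list moved with time in the same libraries as Hspa5 and Hsp90b1. In WT-labelled libraries at 8 h against 0 h, 8 of its 18 genes fell and 2 rose, where 3.05% of all genes fell and 3% rose. Those that fell were lumenal folding proteins: calreticulin (Calr) by 0.92, Sdf2l1 by 0.87, the disulfide isomerases Pdia6 by 0.69, Pdia4 by 0.63 and Pdia3 by 0.42, Manf by 0.59, the HSP110 of the ER Hyou1 by 0.51 and Creld2 by 0.46. Those that rose were Ddit3, a stress transcription factor, by 0.74 and Herpud1, of ER-associated degradation, by 0.61. Over the same time in PD-1 KO-labelled libraries, Calr fell by 0.50 and Hyou1 by 0.35, and Ddit3 rose by 0.85 and Herpud1 by 0.75. No gene of the 4 lists passed for the genotype difference of the time effects or for amyloid-beta in either genotype.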

How the data were processed

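RNA of 30 libraries was read from 1 deposited table. Its deposited signal values are read counts per gene, scaled by the authors with one factor for each library and raised to 1 where lower. The values themselves show this: above 1, a library holds only multiples of 1 step, and all values of up to 5000 reads came out whole within 0.05 reads (100.0%). The floor can hide up to 4 reads in 12 libraries, so no count model was the main test. Recovered reads cover the genes in the table only, and their number limits precision through counting error. Per the submitters' processing notes, the tools were HISAT 0.1.5, Partek 6.6 and R 3.0.2 with DESeq2 (version not given), and the build was mm10. The counting program, its annotation and its use of strand are not given in the sources used here. Columns of other samples numbered 0.

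Values were analysed as log2(value + 1), which understates changes of low genes. Genes that reached 10 in at least 3 libraries were tested, 13722 in all. One mean per group was fitted to the 30 libraries with limma 3.58.1 in R 4.3.3 (moderated test, intensity trend, 20 residual degrees of freedom), with Benjamini-Hochberg adjustment over all genes in each of 20 comparisons and a threshold of 0.05. No p was adjusted over the members alone. The script was tested on simulated data. The alternatives were a pseudocount of 10, no filter, quantile normalisation, voom on the recovered reads, each library left out in turn and, added after seeing the data, voom with the deposited scaling. Gene positions and exon lengths are those of GENCODE M21 for mm10, and promoter sequences those of RefSeq for GRCm38.p6.

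The members, the pathway and marker lists and the tests were chosen with earlier results of these data known. Values per library were given for a fixed set of members and for up to 8 increases and 8 decreases of the largest fold past the threshold in a comparison. The 5 immediate early genes, and the comparison of marker sums with single members, were looked at after their values were seen.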

Additional observations from a re-analysis of the deposited data

How the results depend on the processing

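No paired analysis was possible because the labels give no replicate numbers shared between groups. No filter changed no call of a member, and a pseudocount of 10 kept every call and added Hspa1b at 0 h (1.34, adjusted p = 0.0477). Calls made with all 30 libraries gave 2016 gene results with 1 library left out, of which 1818 kept the call and 198 lost it. Calls gained are not counted in these figures. Calls of the average were refitted without each of the 30 libraries and weigh most in this pool. It therefore does not give the share lost in single comparisons. Counts of members with 1 library left out ran, for WT-labelled at 2 h against 0 h, from 0 to 1 higher and 0 to 3 lower. For PD-1 KO-labelled they ran from 0 to 1 higher at 2 h against 0 h, and from 0 to 5 higher and 0 to 1 lower at 8 h against 0 h. At 8 h against 2 h they ran from 0 to 0 higher for PD-1 KO-labelled, and from 1 to 2 higher and 0 to 5 lower for WT-labelled. The genotype difference of the time effect ran from 0 to 2 higher at 2 h and 0 to 1 at 8 h. Lower in PD-1 KO-labelled than in WT-labelled were 1 to 4 members at 0 h, 0 to 10 at 2 h, 0 to 2 at 8 h and 2 to 11 at 2 h with amyloid-beta.

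Quantile normalisation gave 1 higher member for WT-labelled at 2 h against 0 h, 2 lower for PD-1 KO-labelled at 8 h against 0 h, 1 lower for it at 8 h against 2 h, 1 higher and 0 lower for WT-labelled at 8 h against 2 h, 2 higher for the genotype difference at 2 h, and 11 lower in PD-1 KO-labelled at 2 h. Voom gave 6 lower for WT-labelled at 2 h against 0 h, 0 lower for PD-1 KO-labelled at 8 h against 0 h and 1 higher for the genotype difference at 2 h. It gave 2, 2 and 0 lower members in PD-1 KO-labelled at 0, 2 and 8 h, 0 and 0 with amyloid-beta at 2 and 8 h, and 1 on average. Voom with the deposited scaling gave 2 higher at 8 h against 0 h and 2 at 8 h against 2 h for PD-1 KO-labelled, and 6 higher in PD-1 KO-labelled at 0 h. Its average split was 28 higher and 16 lower, so the fewer lower members under voom came with its library sizes. Shares of all genes under these alternatives are not given here.

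Small genotype differences changed sign. On average, quantile normalisation gave -0.02 for Dnajb5, -0.012 for Dnajc27, -0.113 for Dnajc28 and 0.044 for Hspa9. Voom gave 0.021 for Dnaja2, 0.031 for Dnajc14, 0.021 for Dnajc5, 0.025 for Dnajc7, 0.03 for Hspa14 and 0.007 for Hspa4. At 2 h with amyloid-beta, Hspa4 was 0.006 with quantile normalisation and 0.016 with voom, and Dnaja2 was 0.022 with voom. At 0 h, Dnajb13, Dnajc6 and Hspa12a missed the threshold with voom under either scaling (adjusted p of 0.0547 to 0.0687), and Hspb1 missed it with quantile normalisation at 0 h, at 2 h and in both conditions with amyloid-beta. The cause was not tested. Values below about 30, such as those of Hspa1l and, in WT-labelled libraries, of Hspb1, Dnajc6 and mostly Hspa1b, carry a larger counting error for their size. Its part in the missed calls was not tested.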
